A study of Mus musculus with 55 samples.

Results

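p53 and Gadd45 stress genes are a set of 10 genes whose products sense or answer damage to DNA and other stress: Cdkn1a, Mdm2, Ccng1, Trp53inp1, Bbc3, Bax, Gadd45a, Gadd45b, Gadd45g and Sesn1. They were followed in the lungs of 55 mice, with RNA from each mouse on 1 Affymetrix mouse whole-genome array. Members were chosen by name, as every probe set (a group of probes that reads 1 transcript) whose annotation carries only that gene's symbol. By this rule 9 of the 10 genes were measured, by 20 of 45037 probe sets. Bax had no such probe set in the annotation used and was not analysed here. A gene is given by its probe set with the highest mean unless another is named, and all values are log2 values as the authors normalized them, so that a difference of 1 is a doubling.

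All mice were male animals labelled C57BL/6 (C57BL/6J in the study's methods, which describe the mice exposed on AIN-76A), 6 weeks old when a 2-week acclimation to their diet began, with no genetic change in any group. The first set was exposed for 5 weeks to arsenic (As), as sodium arsenite, on the AIN-76A diet: 5 mice had 10 ppb As in food, 4 mice had 10 ppb and 4 mice had 100 ppb As in drinking water, and 5 control mice had none added. The second set had the same exposures on a diet labelled LRD-5001, with 5 mice at 10 ppb in food, 5 mice at 10 ppb and 3 mice at 100 ppb in water, and 4 control mice. The injected set was on AIN-76A without added As and received 1 intraperitoneal injection 8 hr before sampling, of dexamethasone and sodium arsenite together, dexamethasone, sodium arsenite or saline only, with 5 mice each and each drug at 1 mg/kg. Dexamethasone is a synthetic glucocorticoid. Whole lung was sampled, so a value is an average over all cells of the organ, and fewer cells of a type cannot be told apart from less RNA per cell.

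The protein p53 is a transcription factor that is held low by Mdm2, the ubiquitin ligase that marks it for breakdown, and that builds up when DNA is damaged. Its targets stop the cell cycle (Cdkn1a, which encodes the cyclin-dependent kinase inhibitor p21), feed back on p53 (Mdm2 and Ccng1, cyclin G1), restrain growth signalling (Sesn1, sestrin 1) or bring on cell death (Bbc3, which encodes PUMA, and Bax). Trp53inp1 encodes a p53-induced nuclear protein that raises the activity of p53. The Gadd45 proteins are small stress sensors that bind the kinase Map3k4 and cell cycle proteins. Gadd45a is a p53 target, whereas Gadd45b and Gadd45g are known chiefly as genes switched on by cytokines and other outside signals. Cdkn1a can also be switched on without p53, by glucocorticoids among other signals.

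Promoters are shown for the members whose levels differed most between groups or did not overlap in a comparison below. The 250 bases before the annotated start were read from RefSeq on build GRCm38.p6, 5′ to 3′ on the strand of the gene, with motif matches in capitals. The windows are chr17:29090729-29090978 (plus strand, the first of the 2 Cdkn1a starts), chr6:67037408-67037657 (minus strand, Gadd45a), chr10:80929841-80930090 (plus strand, Gadd45b) and chr13:51846425-51846674 (plus strand, Gadd45g).
Cdkn1a: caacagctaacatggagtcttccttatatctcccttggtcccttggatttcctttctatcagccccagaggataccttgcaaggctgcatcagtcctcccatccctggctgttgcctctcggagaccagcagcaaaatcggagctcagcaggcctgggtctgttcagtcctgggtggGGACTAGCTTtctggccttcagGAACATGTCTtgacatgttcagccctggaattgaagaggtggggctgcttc
Gadd45a: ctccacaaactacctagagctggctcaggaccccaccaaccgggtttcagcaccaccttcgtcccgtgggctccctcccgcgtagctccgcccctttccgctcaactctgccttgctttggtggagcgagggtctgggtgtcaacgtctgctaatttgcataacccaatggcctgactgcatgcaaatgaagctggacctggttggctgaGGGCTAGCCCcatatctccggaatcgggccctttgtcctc
Gadd45b: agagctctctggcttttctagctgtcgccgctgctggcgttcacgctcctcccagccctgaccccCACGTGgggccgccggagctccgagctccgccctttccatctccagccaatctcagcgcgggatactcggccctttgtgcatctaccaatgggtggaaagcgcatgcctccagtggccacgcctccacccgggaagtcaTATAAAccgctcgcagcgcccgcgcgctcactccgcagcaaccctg
Gadd45g: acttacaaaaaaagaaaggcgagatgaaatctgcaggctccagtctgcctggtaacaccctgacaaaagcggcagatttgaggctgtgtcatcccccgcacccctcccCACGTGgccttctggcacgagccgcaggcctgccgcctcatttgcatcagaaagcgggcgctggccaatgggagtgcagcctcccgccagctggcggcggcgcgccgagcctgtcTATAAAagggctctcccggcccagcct
Capitals mark the p53 half-site, the 10-base element that p53 binds in pairs, in Cdkn1a (at −73 and −51 from the start) and Gadd45a (at −40). In Gadd45b and Gadd45g they mark the E-box CACGTG (at −185 and −142) and the TATA box core TATAAA (at −46 and −27).

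Promoter windows were found for 9 of the 10 genes, 13 windows in all, and none for Trp53inp1. The p53 half-site was in 6 of the 13 windows, and in 7.13% of the 32851 windows of all genes. The 6 were those of Mdm2, Ccng1, Bax, Gadd45a, 1 of 2 Cdkn1a starts and 1 of 2 Sesn1 starts. The TATA box core was in 12.4% of all windows and the E-box in 6.02%, and the E-box was also in the windows of Bax and of 1 Bbc3 start. No member window held the glucocorticoid half-site TGTTCT (16.1% of all windows), the AP-1 site TGANTCA (6.75%) or the cAMP response element TGACGTCA (1.55%). Both strands were searched, and no 2 of these motifs overlapped in a window printed here. A match is a string of letters and was not tested as a binding site.

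Before the results, 3 arrays were set aside for low quality: 1 of 100 ppb water on AIN-76A (mouse B), 1 of 10 ppb water on LRD-5001 (mouse C) and 1 of arsenite injection (mouse E). Their interquartile range of log2 values was 1.80 to 3.31, against 3.51 to 3.94 in the 52 arrays kept. All 7 lung markers had a probe set, and their mean per array ran from 10.95 to 12.05 in the 52 arrays. Thymus markers, with means of 4.91 or less in most arrays, were at 10.16 in mouse E of 10 ppb water on AIN-76A and at 8.23 in mouse E of saline, and the skeletal muscle markers were at 10.38 in mouse A of 10 ppb water on AIN-76A and at 10.81 in mouse B of 10 ppb food on LRD-5001. Dexamethasone mice did not stand apart from saline mice in 4 genes that glucocorticoids induce: Tsc22d3 differed by −0.17, Fkbp5 by 0.07, Per1 by −0.06 and Zbtb16 by −0.69, none past the test. All 4 averaged higher after dexamethasone with arsenite than after arsenite alone. Tsc22d3 was at 10.61 against 10.23, Fkbp5 at 9.28 against 7.74, Per1 at 8.19 against 7.80 and Zbtb16 at 8.66 against 7.31. Arsenite alone also averaged below saline in all 4 (10.40, 8.84, 8.26 and 8.95 after saline, in the same order). A check of arsenite by Hmox1, Mt1, Mt2 and Hspa1a was mixed between arsenite and saline mice. Mt1 averaged 9.53 after arsenite against 10.57 after saline, and Mt2 7.89 against 8.93. Hmox1 (6.69 against 6.33) and Hspa1a averaged higher. The median difference over the 4 genes was −0.33, with 1 lower at an unadjusted p under 0.05 and 0 called. After dexamethasone and arsenite all 4 averaged higher than after saline, by a median of 0.24, with 0 called. Arrays came from 5 batches of 11, taken from the names of the raw array files.

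Across the 12 groups the members differed in how far their group means lay apart. Cdkn1a had the widest range of group means, 2.18, which is at the 99.6th percentile of all probe sets. Its group mean was highest after dexamethasone and arsenite (10.76) and lowest in LRD-5001 control mice (8.58). Gadd45g (range 1.10), Trp53inp1 (0.98) and Gadd45b (0.97) also lay at or above the 95th percentile. Mdm2 was at the other end. Its 12 group means lay within 0.15 of each other, at the 2.78th percentile, and its 52 single values ran from 7.91 to 8.58. A second Mdm2 probe set, with a mean of 6.83, had a range of 0.33 (percentile 49.7). Ccng1 (range 0.30, percentile 41.0) and Bbc3 (0.42, 66.7) lay in the middle by their main probe sets, but the other Ccng1 probe sets, with means of 8.09 and 7.46, had ranges of 0.56 (percentile 81.0) and 0.75 (90.6). Sesn1 (0.65, 86.5) and Gadd45a (0.63, 85.7) lay higher. The mean after dexamethasone and arsenite was the highest of the 12 for Cdkn1a, Trp53inp1, Gadd45b, Gadd45g and Sesn1.

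**Figure D1:**
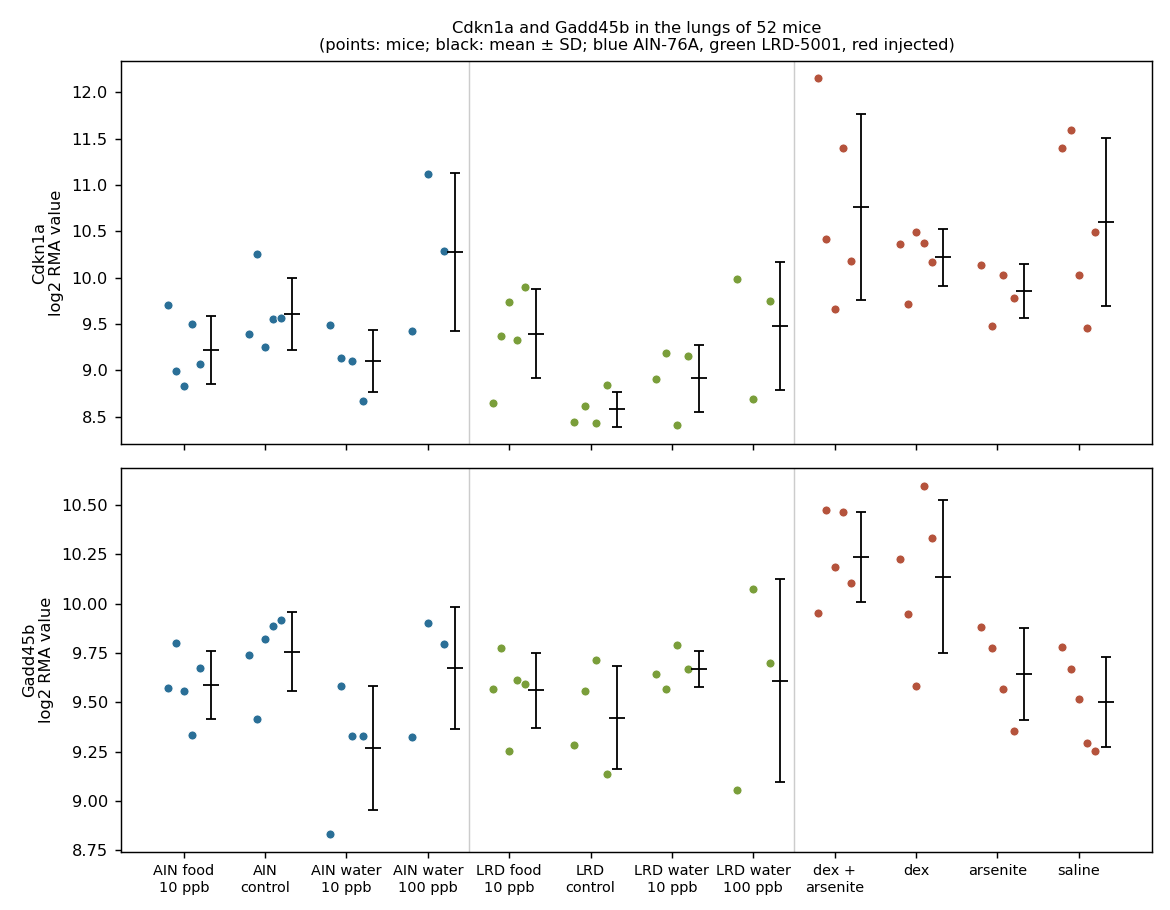
Log2 value of Cdkn1a and Gadd45b (vertical axes) in each of the 52 mice kept, by group (horizontal axis), with points for mice and black marks for the mean and SD of the group. The group mean of Cdkn1a is lowest in the 4 LRD-5001 control mice (8.58, values 8.43 to 8.84). That of Gadd45b is highest in the 2 groups given dexamethasone (10.24 with arsenite and 10.14 without).

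Gadd45b was higher in the lungs of mice given dexamethasone and arsenite than after saline, and it was the only member to pass the test in any of the comparisons. Its values were 9.95, 10.47, 10.19, 10.47 and 10.11 after dexamethasone and arsenite, against 9.78, 9.67, 9.52, 9.29 and 9.26 after saline. The groups did not overlap. The difference was 0.73 (95% interval 0.38 to 1.08, SE 0.17, n = 5 each), or 1.66-fold, with an adjusted p of 0.0453 by limma and an exact permutation p of 0.00794, the smallest that 5 against 5 mice can give. In this comparison 0.755% of all probe sets were called, 1 of 9 members was called, and 2.18% of all probe sets had groups that did not overlap. At an unadjusted p under 0.05 the share was 9.89% of probe sets and again 1 of 9 members.

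The rise of Gadd45b was seen within batches too: the mouse given dexamethasone and arsenite was the higher one in each of 4 batches that held both groups, by 0.59 to 0.89. With batch in the model the difference was 0.72 with an adjusted p of 0.00165, in a fit that called 2.08% of probe sets. The call of the model without batch was a narrow one. When each of the 10 mice was left out in turn, the adjusted p lay between 0.0285 and 0.143 and passed 0.05 only without mouse A given dexamethasone and arsenite, so that the loss of any 1 of the other 9 ended the call. A second Gadd45b probe set gave 9.82, 9.99, 9.74, 10.32 and 9.96 after dexamethasone and arsenite, against 9.62, 9.44, 9.40, 8.75 and 9.04 after saline. It differed by 0.72, with an adjusted p of 0.104, or 0.00271 with batch in the model.

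The glucocorticoid-induced genes named above did not differ between these dexamethasone and saline mice past the test, and the groups are named here by their labels. After dexamethasone alone Gadd45b was at 10.23, 9.95, 9.58, 10.60 and 10.33, against the saline values above. Of the 5 dexamethasone mice only mouse C lay within the saline range. The difference was 0.63 (95% interval 0.28 to 0.98, 1.55-fold) and did not pass the test over all probe sets (adjusted p = 0.0999 by limma, exact permutation p = 0.0238). With batch in the model the adjusted p was 0.0146, and the 3 batches that held both groups had differences of 0.33 to 0.71. The model called 0.626% of probe sets (9.05% unadjusted) and 0 of 9 members, with 1 of 9 past an unadjusted p under 0.05, namely Gadd45b. The batch model called 1.05% of probe sets.

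Arsenite alone left Gadd45b near saline, with 9.88, 9.78, 9.57 and 9.35 in the 4 arsenite mice and a difference from saline of 0.14 (95% interval −0.23 to 0.51). Set against arsenite alone, dexamethasone with arsenite gave 0.59 (95% interval 0.22 to 0.96, 1.51-fold, adjusted p = 0.154 by limma, exact permutation p = 0.0159). These groups did not overlap, the 3 shared batches gave 0.22 to 0.73, and with batch in the model the adjusted p was 0.0194. Without batch 0.622% of probe sets were called in this comparison (10.2% unadjusted), with batch 0.873%, and 4.22% did not overlap. Dexamethasone with arsenite differed from dexamethasone alone by 0.10 (95% interval −0.25 to 0.45). The interaction, that is, how far the effect of both drugs departs from the sum of each, was −0.04 (95% interval −0.55 to 0.47). These comparisons share their groups and are not independent of each other.

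**Figure D2:**
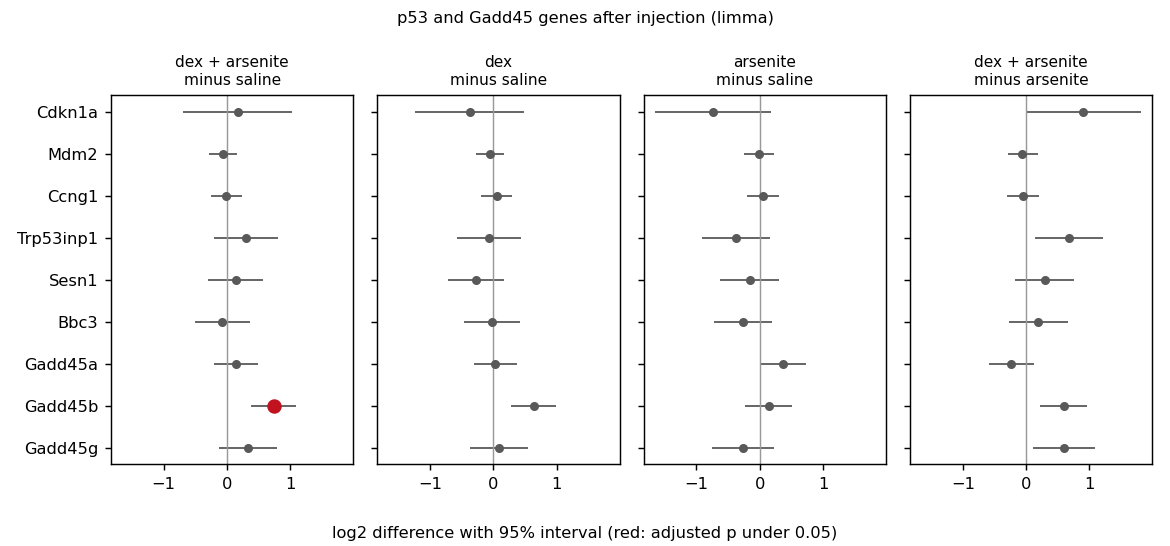
Difference in log2 value with its 95% interval (horizontal axis) for the 9 members (vertical axis) in 4 comparisons among the 19 injected mice kept. The 1 red point is Gadd45b, 0.73 higher after dexamethasone and arsenite than after saline (adjusted p = 0.0453). Intervals of Mdm2 are short and those of Cdkn1a are wide.

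B cell markers ran lower in the groups given dexamethasone, where Gadd45b was higher, though their ranges overlapped that of saline. The mean of 2 of the 3 listed B cell markers measured ran from 4.70 to 6.19 after dexamethasone and arsenite, from 4.68 to 7.26 after dexamethasone and from 6.57 to 7.65 after arsenite, against 5.37 to 9.14 after saline. T cell markers (3 of 4 measured) ran from 4.81 to 5.63 after both and from 5.14 to 5.70 after dexamethasone, against 5.60 to 8.62 after saline. Fat markers (3 of 5 measured) ran from 4.79 to 5.64 after both and from 5.22 to 8.57 after dexamethasone, against 5.09 to 9.84 after saline. Over the 52 arrays Gadd45b and the B cell markers had r = −0.678, and r = −0.386 once group means were taken out. Other members had a negative r with these markers too: Trp53inp1 −0.632 and −0.498, Gadd45g −0.592 and −0.176, and Cdkn1a −0.566 and −0.286, in the same order. The part of cell makeup in the Gadd45b result was not tested. Without saline mouse E, which had the high thymus markers, the difference of Gadd45b between dexamethasone with arsenite and saline was 0.68 (adjusted p = 0.108).

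Cdkn1a was the most spread of the members among injected mice, and no comparison of it passed the test. It was at 12.15, 10.42, 9.66, 11.40 and 10.17 after dexamethasone and arsenite, at 10.36, 9.71, 10.49, 10.37 and 10.17 after dexamethasone, at 10.14, 9.47, 10.03 and 9.78 after arsenite, and at 11.40, 11.60, 10.02, 9.46 and 10.50 after saline. Spread was wide after dexamethasone and arsenite (SD 1.00) and after saline (SD 0.91), and all groups overlapped. The interaction of 1.28 had an unadjusted p of 0.0464 and an adjusted p of 0.999. The 3 injected mice of batch 3, mouse E of dexamethasone and arsenite and mice B and C of saline, were at 11.40, 11.40 and 11.60. With batch in the model the interaction was 0.13. Dexamethasone minus saline was −0.38, and 0.21 with batch in the model, and arsenite minus saline was −0.74, and 0.12 with batch. For these last differences the sign was thus not the same in the 2 models.

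Among the other Gadd45 genes, Gadd45a was higher after arsenite alone. It was at 6.72, 6.52, 6.99 and 6.63 in the 4 arsenite mice, against 6.13, 6.50, 6.23, 6.42 and 6.46 in saline mice, with no overlap. The difference of 0.37 (95% interval 0.01 to 0.73, 1.29-fold) did not pass the test over all probe sets (unadjusted p = 0.0448, adjusted p = 0.733 by limma, exact permutation p = 0.0159, the smallest for 4 against 5). The 2 batches that held both groups gave 0.39 and 0.49, and the batch model gave 0.25. In this comparison 0% of probe sets were called, 6.72% had an unadjusted p under 0.05, as did 1 of 9 members (Gadd45a), and 2.58% did not overlap. Dexamethasone with arsenite held Gadd45a at 6.23, 6.28, 6.75, 6.64 and 6.52.

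Gadd45g was at 8.91, 8.78, 8.69, 9.19 and 8.45 after dexamethasone and arsenite, against 8.36, 8.63, 7.95 and 7.88 after arsenite. It was 0.60 higher after both than after arsenite (95% interval 0.11 to 1.08, adjusted p = 0.329, exact permutation p = 0.0317). Trp53inp1 had a difference of the same kind. It was at 11.30, 10.56, 10.27, 10.75 and 10.31 after both and at 9.56, 9.77, 10.37 and 10.12 after arsenite, a difference of 0.68 (95% interval 0.14 to 1.22, adjusted p = 0.307, exact permutation p = 0.0476). With Gadd45b these made 3 of 9 members past an unadjusted p under 0.05 in this comparison, where the share over all probe sets was 10.2%. Arsenite alone averaged below saline in Gadd45g (8.205 against 8.473) and in Trp53inp1 (9.954 against 10.335). After both drugs these 2 genes averaged 8.803 and 10.637, and neither differed from saline at an unadjusted p under 0.05 by limma. Mouse A of dexamethasone and arsenite was the highest of the group in both Cdkn1a and Trp53inp1, and its Sesn1 (9.66) was the highest of all 52 mice. Its neutrophil markers, at 11.28, were the highest of its group as well.

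**Figure D3:**
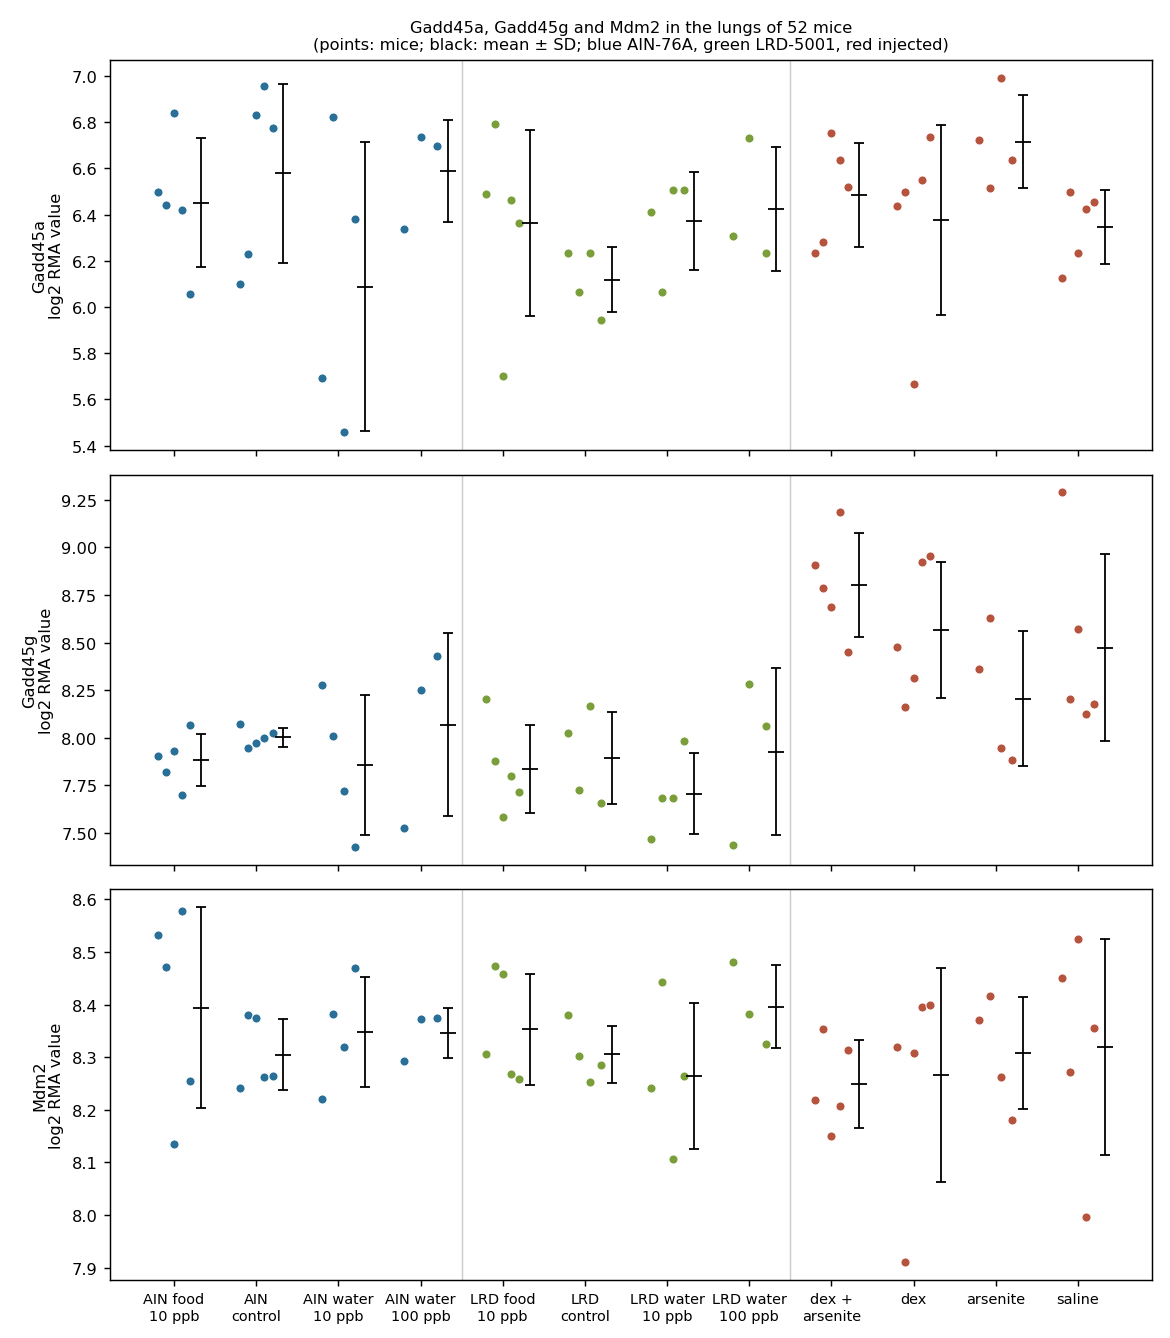
Log2 value of Gadd45a, Gadd45g and Mdm2 (vertical axes) in each of the 52 mice kept, by group (horizontal axis), with points for mice and black marks for the mean and SD of the group. Gadd45g is highest after dexamethasone and arsenite (mean 8.80), Gadd45a after arsenite (6.72), and Mdm2 keeps to 7.91 to 8.58 throughout.

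The feedback and death arms of the pathway did not pass the test in any injected group. Mdm2 differed from saline by −0.07 after dexamethasone and arsenite (95% interval −0.29 to 0.15). Ccng1 lay between 9.46 and 10.03 after dexamethasone and between 9.51 and 9.84 after saline. Bbc3 had group means of 6.56 after both, 6.61 after dexamethasone and 6.37 after arsenite, against 6.63 after saline, each with an SD of 0.27 to 0.40. Over the 9 members the median difference was 0.14 for both drugs minus saline, −0.02 for dexamethasone minus saline and −0.16 for arsenite minus saline, beside medians over all probe sets of 0.01, 0.00 and 0.01. Both drugs minus dexamethasone called 0% of probe sets (2.28% unadjusted) and 0 of 9 members by either rule. The interaction called 0% (3.79% unadjusted), with Cdkn1a and Trp53inp1 the 2 of 9 members past an unadjusted p under 0.05.

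Saline mice were also set against uninjected control mice, and no member passed that test. Saline mice had Cdkn1a values of 11.40, 11.60, 10.02, 9.46 and 10.50, against 9.39, 10.26, 9.26, 9.56 and 9.57 in AIN-76A control mice, both on the same diet. The difference was 0.99 (95% interval 0.29 to 1.69, unadjusted p = 0.00682, adjusted p = 0.999 by limma over all 52 arrays). Batches disagreed: 3 of 4 were higher in saline mice, with differences of −0.11 to 2.11. Gadd45g was at 9.29, 8.21, 8.57, 8.12 and 8.18 in saline mice (SD 0.49), against 8.07, 7.95, 7.97, 8.00 and 8.02 in control mice (SD 0.05). These values did not overlap and differed by 0.47 (95% interval 0.08 to 0.86, 1.39-fold, adjusted p = 0.999 by limma, exact permutation p = 0.00794), in the same direction in 4 of 4 batches. The size depended on single mice: with each mouse left out in turn, the Gadd45g difference ran from 0.27 to 0.56. This comparison called 0.00222% of probe sets, 1 in all (4.09% unadjusted), and 0 of 9 members (2 of 9 unadjusted), and 0.999% did not overlap. All 4 glucocorticoid-induced genes averaged higher in saline mice, by a median of 0.80, and 3 of them had an unadjusted p under 0.05 (Fkbp5 1.38, Zbtb16 0.94, Tsc22d3 0.65, each with an adjusted p of 0.999). Injection, handling, sampling time and length of stay on the diet cannot be told apart here.

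Over all treatments together, Cdkn1a was at 10.38 ± 0.75 in the 19 injected mice and 9.29 ± 0.60 in the 33 mice not injected (mean ± SD). Gadd45g was at 8.53 ± 0.41 and 7.89 ± 0.26 in these sets, and Trp53inp1 at 10.31 ± 0.45 and 9.86 ± 0.41. Mdm2 was at 8.28 ± 0.15 and 8.34 ± 0.11. The sets differ in diet as well as in injection and As exposure, and no test was made of them.

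In chronic exposure on AIN-76A no member passed the test, and the gene nearest to it was Gadd45b at 10 ppb in water. In the order of dose it was at 9.74, 9.42, 9.82, 9.89 and 9.92 in control mice, at 8.83, 9.58, 9.33 and 9.33 at 10 ppb, and at 9.32, 9.90 and 9.79 at 100 ppb. At 10 ppb all but 1 mouse lay below the control range. The difference at 10 ppb was −0.49 (95% interval −0.82 to −0.16, 0.713-fold, unadjusted p = 0.00655, adjusted p = 0.492 by limma, exact permutation p = 0.0317), and mice at 10 ppb were lower in 4 of 4 batches, with differences of −0.91 to −0.09. Leaving out mouse C of that group brought 369 probe sets past the test, against 0 with all mice, and Gadd45b to −0.59 with an adjusted p of 0.0808. Without mouse A, which had the lowest value, Gadd45b was at −0.34 (adjusted p = 0.664). That mouse had fat markers (3 of 5 measured) at 11.12 and skeletal muscle markers at 10.38. Fat markers ran from 5.32 to 11.12 at 10 ppb, against 4.79 to 6.48 in control mice, and neutrophil markers from 7.08 to 8.25, against 6.68 to 10.82. Their part was not tested. With all mice 0% of probe sets were called (9.79% unadjusted, 1370 higher and 3038 lower) and 1 of 9 members, Gadd45b, was past an unadjusted p under 0.05.

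Cdkn1a on AIN-76A followed no single direction with dose. It was at 9.39, 10.26, 9.26, 9.56 and 9.57 in control mice, at 9.49, 9.14, 9.10 and 8.67 at 10 ppb in water, and at 9.42, 11.12 and 10.28 at 100 ppb. The difference was −0.51 at 10 ppb (unadjusted p = 0.0972) and 0.67 at 100 ppb (95% interval 0.00 to 1.34, unadjusted p = 0.0489, adjusted p = 1). At 100 ppb the 3 batches gave −0.84 to 1.56. Neutrophil markers (5 of 6 measured) moved beside it: they ran from 7.08 to 8.25 at 10 ppb and from 8.64 to 12.32 at 100 ppb, with 6.68 to 10.82 in control mice, and the mouse with Cdkn1a at 11.12 was the one at 12.32. Their part was not tested. At 100 ppb 0% of probe sets were called (1.83% unadjusted) and 1 of 9 members (Cdkn1a) was past an unadjusted p under 0.05.

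In mice with 10 ppb in food on AIN-76A both genes overlapped the control values. Cdkn1a was at 9.71, 9.00, 8.82, 9.50 and 9.07 in food mice, −0.39 from control (95% interval −0.96 to 0.19), and Gadd45b at 9.57, 9.80, 9.56, 9.34 and 9.67, −0.17 from control (95% interval −0.48 to 0.15), below control in 5 of 5 batches. No member was past an unadjusted p under 0.05, and 0% of probe sets were called (1.89% unadjusted).

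Trp53inp1 and Sesn1 had 1 high mouse in common. At 10 ppb in water on AIN-76A Trp53inp1 was at 9.63, 10.21, 9.46 and 11.56, and Sesn1 at 8.82, 8.86, 8.12 and 9.46. The highest value of each was mouse E, whose thymus markers were at 10.16 and whose markers of cycling cells were at 9.40, the highest of its group. Without that mouse the difference of Trp53inp1 from control was −0.15 and that of Sesn1 −0.06, and Gadd45b was at −0.51. Gadd45a at 10 ppb was at 5.69, 6.82, 5.46 and 6.38, with 6.10, 6.23, 6.83, 6.96 and 6.77 in control mice, a difference of −0.49 (unadjusted p = 0.0684).

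**Figure D4:**
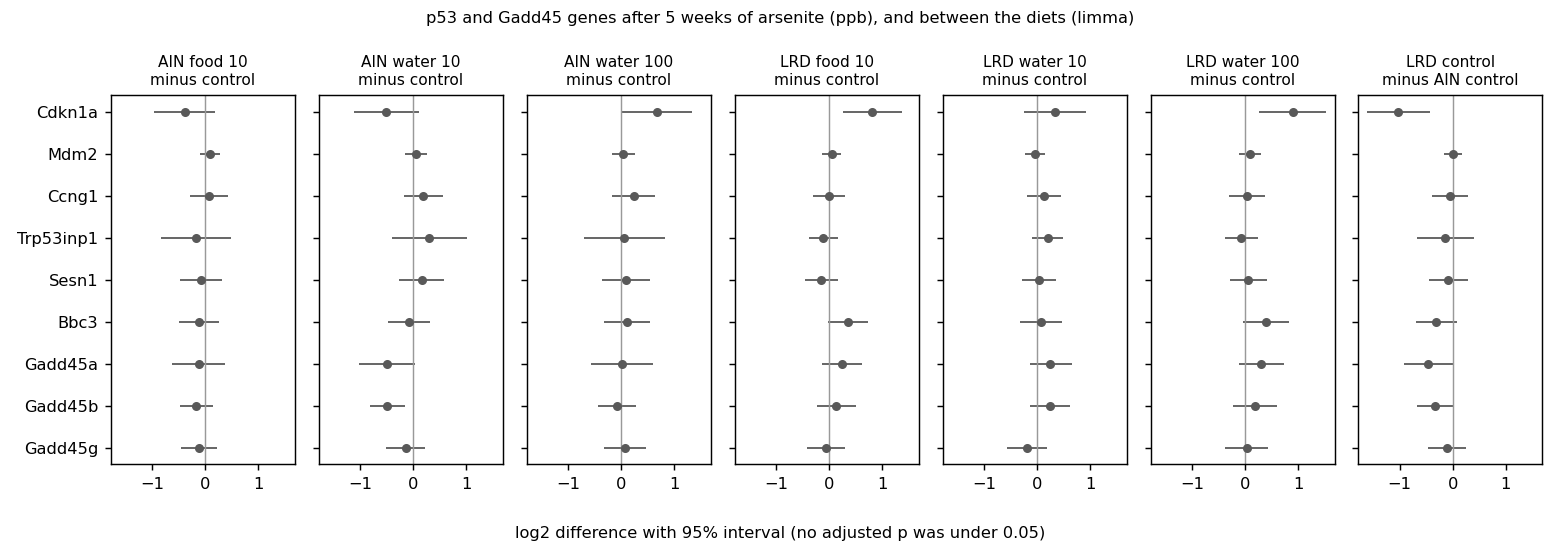
Difference in log2 value with its 95% interval (horizontal axis) for the 9 members (vertical axis) in the chronic exposures and in LRD-5001 against AIN-76A mice. No adjusted p was under 0.05. The largest difference is Cdkn1a in LRD-5001 control mice, −1.03 from AIN-76A control mice.

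On the LRD-5001 diet Cdkn1a averaged higher in each of the As groups than in control mice, and none of these differences passed the test. In order of dose in water it was at 8.44, 8.61, 8.43 and 8.84 in control mice, at 8.90, 9.19, 8.41 and 9.16 at 10 ppb, and at 9.99, 8.69 and 9.75 at 100 ppb. Food mice were at 8.64, 9.37, 9.73, 9.33 and 9.90. The difference from control was 0.34 with 10 ppb water (95% interval −0.25 to 0.92), 0.90 with 100 ppb water (95% interval 0.26 to 1.53, unadjusted p = 0.00842) and 0.82 in food (95% interval 0.26 to 1.37, unadjusted p = 0.00669, exact permutation p = 0.0317), with an adjusted p of 1 in both of the last. The 4 control values lay close together and overlapped each As group. The 3 comparisons share these 4 control mice. Over the 9 members the median difference from control on LRD-5001 was 0.14 for 10 ppb water, 0.09 for 100 ppb water and 0.05 for food, and on AIN-76A it was −0.08, 0.07 and −0.12 in the same order, beside medians over all probe sets within 0.01 of 0.

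Neutrophil markers on LRD-5001 ran from 7.68 to 9.37 at 100 ppb in water and from 6.59 to 9.52 in food, against 7.23 to 8.69 in control mice. Over the 52 arrays Cdkn1a and the neutrophil markers had r = 0.605, and 0.566 with group means taken out. In the same order Cdkn1a had r = −0.542 and −0.506 with T cell markers, −0.566 and −0.286 with B cell markers, and 0.319 and 0.432 with lung markers. Neutrophil markers were thus not the only ones that varied with Cdkn1a. Calls on LRD-5001 were 0% of probe sets for 10 ppb water (3.68% unadjusted, 0 of 9 members), 0% for 100 ppb water (3.54% unadjusted, 1 of 9 members, Cdkn1a) and 0% in food (2.62% unadjusted, 1 of 9 members, Cdkn1a). Gadd45b on LRD-5001 was at 9.64, 9.57, 9.79 and 9.67 at 10 ppb in water, inside the range of its control mice but for the highest value (9.28, 9.56, 9.71 and 9.13).

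**Figure D5:**
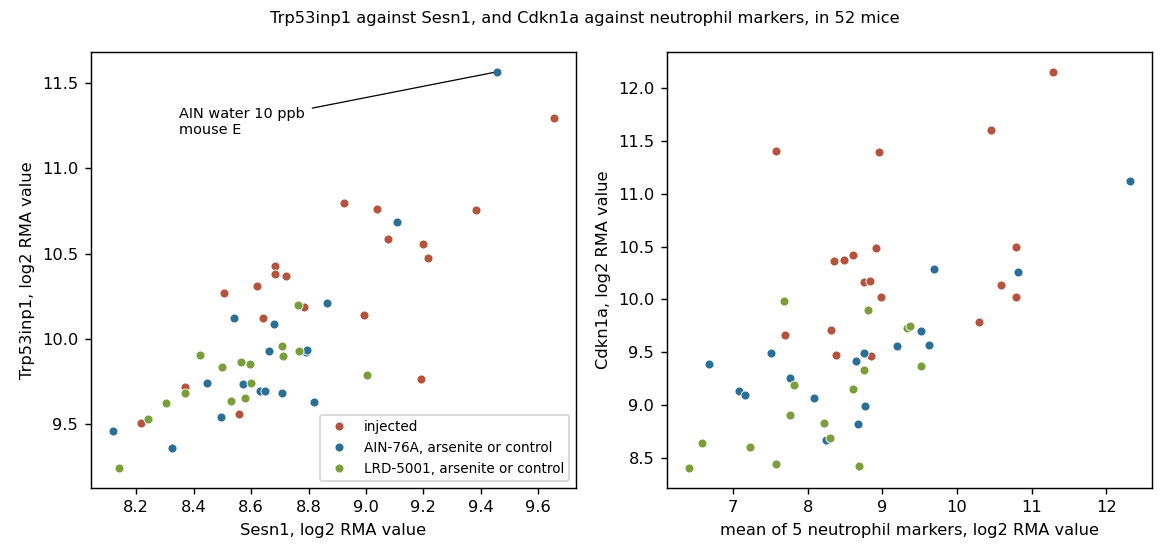
Left, log2 value of Trp53inp1 against Sesn1, and right, Cdkn1a against the mean of 5 neutrophil markers, 1 point per mouse of the 52 kept, coloured by whether the mouse was injected, on AIN-76A or on LRD-5001 (log2 values on all axes). Trp53inp1 and Sesn1 go together within groups (r = 0.767), and Cdkn1a and the neutrophil markers less closely (r = 0.566).

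The largest difference between the diets was in Cdkn1a of control mice. The 4 LRD-5001 control mice, at 8.43 to 8.84, all lay below the 5 AIN-76A control mice, at 9.26 to 10.26. The difference was −1.03 (95% interval −1.62 to −0.43, 0.491-fold, unadjusted p = 0.00144, adjusted p = 0.839 by limma, exact permutation p = 0.0159), lower on LRD-5001 in 3 of 3 shared batches with differences of −1.42 to −0.74, and −0.91 with batch in the model. A second Cdkn1a probe set gave −1.08. Neutrophil markers (5 of 6 measured) ran from 7.23 to 8.69 in LRD-5001 control mice, against 6.68 to 10.82 in AIN-76A control mice, with a median difference of −1.38 over the markers, 3 of 5 lower at an unadjusted p under 0.05 and 0 called, and over the 4 treatments their median difference was −0.73. Their part was not tested. Of all probe sets 0.0111% were called (4.14% unadjusted) and 1.75% did not overlap, and of the 9 members 0 were called and 1 did not overlap. Averaged over the 4 treatments Cdkn1a differed by −0.46 between LRD-5001 and AIN-76A (unadjusted p = 0.0059, adjusted p = 0.741), and the 9 members had differences from −0.46 to −0.01 with a median of −0.11, beside 0.00 over all probe sets. Of the 9, 1 had an unadjusted p under 0.05. That average called 0.16% of probe sets (4.21% unadjusted) and 0 of 9 members.

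The effect of As was set against diet by the difference between its effects on the 2 diets. Gadd45b at 10 ppb in water had an effect 0.73 higher on LRD-5001 than on AIN-76A (unadjusted p = 0.00542, adjusted p = 0.38), and Gadd45a one 0.74 higher (unadjusted p = 0.0318, adjusted p = 0.415). For Cdkn1a in food the difference was 1.20 (95% interval 0.38 to 2.02, unadjusted p = 0.00547, adjusted p = 1). These differences called 0% of probe sets for 10 ppb water (11.3% unadjusted, 2 of 9 members), 0% for 100 ppb water (2.45% unadjusted, 0 of 9) and 0% in food (1.98% unadjusted, 1 of 9). A difference of As effects between diets was thus not shown for any member. The intervals leave room for one of more than a doubling, for Cdkn1a and also for Gadd45a and Gadd45b.

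Members differed in how closely they went together. Trp53inp1 and Sesn1 were the closest pair, with r = 0.885 over the 12 group means and 0.767 over the 52 mice with group means taken out. Gadd45b and Gadd45g had r = 0.731 and 0.564, and Gadd45a and Gadd45b 0.454 and 0.505. Cdkn1a and Gadd45g had 0.873 over group means but 0.193 within groups. Cdkn1a and Mdm2, both classic p53 targets, had −0.297 over group means and 0.284 within groups. These are descriptions over mice that share batches.

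Probe sets of a gene did not always run together. Cdkn1a (r = 0.859 over 52 arrays), Gadd45b (0.875) and Sesn1 (0.829) each had a second probe set that followed the first. For Mdm2 a second probe set with a mean of 6.83 had r = −0.057 with the first. The last Gadd45b probe set was dim (mean 4.43) and had r = −0.015. Trp53inp1 was read in the main by 1 probe set at 10.03, since its other was at 4.09.

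Other genes with the group pattern most like a member, by r over the 12 group means, were Dapk1, Eva1c (both 0.953) and Socs3 (0.943), an inhibitor of cytokine signalling, for Cdkn1a. For Gadd45b they were Rmdn2 (0.978), Adgrl4 (0.975) and Slc16a9 (0.974), and for Gadd45g Slc25a29 (0.978), Irf2bp2 (0.973) and Depp1 (0.955). Gadd45a was most like Mapt, Arrb1 (both 0.941) and Hdc (0.94). Ccnd3 (0.944), Kbtbd11 and Celf2 (both 0.922) were nearest to Trp53inp1, and Kbtbd11 (0.912), Dbr1 (0.889) and Trp53inp1 itself (0.885) to Sesn1. Each was picked as the highest of many.

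Few genes of the wider pathway passed the test. Of 26 other p53 targets measured, 0 were called by limma in any comparison. At an unadjusted p under 0.05, 2 were higher and 1 lower for both drugs minus saline (9.89% of all probe sets), and 3 higher and 1 lower for dexamethasone minus saline (9.05%). Pmaip1, which encodes the death protein NOXA, averaged 8.02 after dexamethasone and arsenite and 7.92 after dexamethasone, against 7.25 after saline, differences of 0.77 (adjusted p = 0.138) and 0.67. Perp averaged 8.70 after both against 7.75 after arsenite (0.95, adjusted p = 0.0686). Plk3 at 10 ppb in water on AIN-76A averaged 5.28, against 5.79 in control mice (unadjusted p = 0.00133, adjusted p = 0.492), and 4 of the 26 targets were lower there at an unadjusted p under 0.05 and 0 higher, where 9.79% of all probe sets were past that threshold, most of them lower.

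Trp53, the gene of p53 itself, was not analysed here, since it had no probe set under the same rule. Neither the 13 measured regulators of p53 nor the 6 measured partners of the Gadd45 proteins had a call in any comparison. The 10 other Bcl2 family genes had none either, among them Bid, which averaged 5.82 after dexamethasone against 6.60 after saline (−0.78, adjusted p = 0.114). For both drugs minus saline 9.89% of all probe sets had an unadjusted p under 0.05, as had 1 of the regulators and 0 of the partners. Of the Bcl2 family genes 2 were higher and 3 lower at that threshold. Of the 7 genes of ATF4 and the integrated stress response 0 were called, and 4 were higher at an unadjusted p under 0.05 for dexamethasone minus saline, where 9.05% of all probe sets were past it. These were Atf4, Ddit3, Atf3 (9.28 against 8.31, a difference of 0.97, adjusted p = 0.538) and Ppp1r15a, which encodes a phosphatase subunit known as GADD34 (9.29 against 8.62, a difference of 0.67, adjusted p = 0.507). At 10 ppb in water on AIN-76A 3 of the 7 were lower at that threshold and 0 higher (9.79% of all probe sets, most of them lower), with Atf3 at 7.05 against 8.04 in control mice (−0.99, adjusted p = 0.492). Ddit3, the stress factor CHOP, averaged 8.26 after arsenite against 7.71 after saline (0.56, unadjusted p = 0.000194, adjusted p = 0.521). Of the 6 other cyclin-dependent kinase inhibitors 1 was called in 1 comparison. Cdkn2b, which encodes the inhibitor p15, averaged 8.85 after dexamethasone and arsenite, against 8.29 after saline (0.56, adjusted p = 0.046). In that comparison 0.755% of all probe sets were called.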

How the data were processed

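Lung RNA of 55 mice was measured on 1 array each, and groups were taken from the sample labels. The deposited values are log2 expression values that the authors made by robust multiarray averaging (RMA). Which arrays they normalized together is not stated, and columns of the 52 arrays kept share 1 scale (medians 4.25 to 4.37). For arrays, the number of mice (3 to 5 a group) limits the precision, and p-values measure only the spread between these mice. Of the probe sets, 64 controls were left out and 45037 tested, of which 34945 carry 1 gene symbol, 932 several and 9160 none.

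Comparisons were made in limma 3.58.1, run in R 4.3.3 (group means, empirical Bayes, two-sided, Benjamini-Hochberg over all probe sets, threshold 0.05). Separate models were fitted to the 19 injected, the 17 AIN-76A and the 16 LRD-5001 mice, to the 33 chronic mice for diet, and to all 52 for saline against uninjected control mice. Single members were also compared by exact permutation, two-sided, in scipy 1.17.1. Tables used Python 3.11.15, numpy 2.4.6 and pandas 2.3.3, and figures matplotlib 3.10.9. The fits were tested on simulated data. Array batch, read from raw file names, entered as a block in an alternative, beside differences within batches.

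Members, gene lists and marker lists were chosen with earlier results of these data known. Named genes are the members, genes of these lists and, for each member, the 3 genes above log2 5 with the highest r over group means. Alternatives were blocks for batch or for replicate letter, array weights, median or quantile centring, 1 model of all groups, a filter on dim probe sets, other probe sets, the 3 arrays set aside put back, and each mouse left out. RNA quality values and the raw arrays were not used here.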

Additional observations from a re-analysis of the deposited data

Results flagged for a closer look

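In 4 of 90 member-by-group sets of 4 or 5 mice, 1 mouse stood far from the others of its group; chance alone gives about 1 in 20. Mdm2 was at 7.91 in dexamethasone mouse B, with its group mates at 8.31 to 8.40. Gadd45a was at 5.67 in dexamethasone mouse C, with the others at 6.44 to 6.74. Trp53inp1 was at 10.20 in mouse D of 10 ppb water on LRD-5001, with the others at 9.86 to 9.91. Sesn1 was at 8.37 in saline mouse F, with the others at 8.99 to 9.22. Of 36 differences between As effects on the 2 diets, or between arsenite effects with and without dexamethasone, 0 passed the test, 5 had an unadjusted p under 0.05, and the lowest adjusted p was 0.38.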

How the results depend on the processing

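Of 431 values of 19 member differences under the alternatives, 410 kept their direction and side of the threshold, 14 were no longer past it, 5 were newly past it and 2 changed sign. All 14 losses were of Gadd45b in dexamethasone and arsenite minus saline, the only difference past the threshold in the model as reported. It stayed past in 7 of its 21 settings. The other differences were not past it to begin with, so the count of 410 says little about that call. Both sign changes were the dim Gadd45b probe set, at −0.14 for dexamethasone minus saline and 0.02 for 10 ppb water on AIN-76A. The members called for dexamethasone minus saline went to 1, Gadd45b, with the batch block, with array weights (0.72, adjusted p = 0.0133) and with 1 model of all 12 groups (adjusted p = 0.0392), and lay between 0 and 1 when a mouse was left out (1 without dexamethasone mouse C, adjusted p = 0.0292). For dexamethasone and arsenite minus saline the 1 call went to 0 with median centring (adjusted p = 0.0591), with the 3 arrays put back (0.73, SE 0.43, adjusted p = 1) and with the replicate block, and lay between 0 and 1 when a mouse was left out. For dexamethasone and arsenite minus arsenite 0 became 1 with the batch block. The cause was not tested. In the other comparisons 0 members were called in every setting. Over all settings the probe sets called ranged from 8 to 1213 for dexamethasone minus saline, from 7 to 1036 for both drugs minus saline, from 34 to 687 for both minus arsenite (280 in the model as reported), from 0 to 369 for 10 ppb water on AIN-76A and from 0 to 683 for its difference between diets. For both counts against saline the low end came with the 3 arrays put back. Replicate letters were not taken to pair the mice. Same-letter pairs had a median r of 0.0151, same-batch pairs 0.267 and pairs that shared neither −0.0776. With the replicate block Gadd45b in dexamethasone and arsenite minus saline was at 0.75 (adjusted p = 0.16), and 36 and 68 probe sets were called for dexamethasone and for both minus saline, against 282 and 340 without it. Depth is not defined for arrays, and dim probe sets carry little signal over background.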
